A study of Mus musculus with 2 samples.

Results

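A set of 10 genes of the Nodal and bone morphogenetic protein (BMP) pathways was examined: the ligand genes Nodal and Bmp4, the co-receptor gene Tdgf1, the inhibitor genes Lefty1, Lefty2, Smad7 and Smad6, and the target genes Id1, Id2 and Id3. They were taken by name from the pathway and not by a measured value, though with earlier results of these data known. They are 10 of 20587 protein-coding genes that could be placed on the peak lists. The measurement was trimethylation of lysine 4 of histone H3 (H3K4me3), a mark found at the starts of active genes and of many genes held ready for activation, made by chromatin immunoprecipitation and sequencing (ChIP-seq). The cells were the mouse embryonic stem cell line E14TG2a.4, which is male and of strain 129/Ola, labelled as embryonic with an age of 3.5 day. The labels name no added treatment, transgene or deletion. There was 1 group of 2 biological replicates and no second cell type or condition. Both replicates come from the same line and donor, and the labels do not say whether they were separate cultures, so the spread between them may be technical.

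Nodal and BMP4 are secreted signals of the transforming growth factor beta (TGF-beta) superfamily. Nodal acts through activin receptors with the help of a co-receptor encoded by Tdgf1 (Cripto) and drives Smad2 and Smad3, which bind DNA with partners such as FoxH1. BMP4 acts through BMP receptors and drives Smad1, Smad5 and Smad9. Both pathways switch on genes that act back on them. Lefty1 and Lefty2 encode secreted antagonists of Nodal, while Smad7 and Smad6 encode inhibitory Smads that act inside the cell. Id1, Id2 and Id3 encode inhibitors of basic helix-loop-helix factors and are classical targets of BMP signalling in embryonic stem cells.

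Promoter sequences are shown for an inhibitor gene, an Id gene and both ligand genes, since the comparison below is between these roles. They run from 250 bases before to 20 bases after the start site, 5′ to 3′, from RefSeq on GRCm38.p6 (mm10). Capitals mark matches on either strand to GTCTAGAC (a palindromic Smad element), CAGAC (the Smad box), GGCGCC (a GC-rich Smad element) or AATNCACA (a FoxH1 core). Windows of 6 of the 10 genes were taken from the RefSeq promoter table and compared.
Smad6 (chr9:64022040-64022309, minus strand): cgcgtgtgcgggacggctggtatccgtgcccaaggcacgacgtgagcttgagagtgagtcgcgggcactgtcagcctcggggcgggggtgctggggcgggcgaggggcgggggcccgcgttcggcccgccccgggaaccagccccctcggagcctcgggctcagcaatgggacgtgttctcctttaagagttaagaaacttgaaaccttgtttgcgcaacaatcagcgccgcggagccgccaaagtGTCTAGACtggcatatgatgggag
Id3 (chr4:136143572-136143841, plus strand): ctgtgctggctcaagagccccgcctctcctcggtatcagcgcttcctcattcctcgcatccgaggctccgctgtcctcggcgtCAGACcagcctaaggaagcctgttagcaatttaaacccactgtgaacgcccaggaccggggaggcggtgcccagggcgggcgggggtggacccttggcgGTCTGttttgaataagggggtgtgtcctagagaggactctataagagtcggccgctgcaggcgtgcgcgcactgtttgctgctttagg
Nodal (chr10:61417722-61417991, plus strand): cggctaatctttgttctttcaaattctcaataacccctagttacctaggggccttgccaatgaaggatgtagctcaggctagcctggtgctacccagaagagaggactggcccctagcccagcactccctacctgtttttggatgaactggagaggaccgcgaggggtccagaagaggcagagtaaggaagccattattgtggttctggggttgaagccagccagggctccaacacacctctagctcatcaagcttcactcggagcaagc
Bmp4 (chr14:46390650-46390919, minus strand): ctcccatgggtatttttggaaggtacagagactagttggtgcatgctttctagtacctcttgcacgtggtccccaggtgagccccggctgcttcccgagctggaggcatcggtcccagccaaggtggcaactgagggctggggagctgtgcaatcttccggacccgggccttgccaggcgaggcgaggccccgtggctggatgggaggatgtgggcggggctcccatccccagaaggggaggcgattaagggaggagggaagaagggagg

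The Smad6 window held 1 GTCTAGAC, which spans the start site from position -4 to position 4, where the base at the start is position 1. Of all 32851 promoter windows of the same length in the table, 0.183% held this motif. Each GTCTAGAC is its own reverse complement, and it overlapped no match to the other 3 motifs in Smad6. The RefSeq start of Smad6 lies 26 bp downstream of the 5′ end used for the peaks, while in the other 5 genes compared they are the same base. The Id3 window held 2 Smad boxes on opposite strands, with leftmost bases at -167 and -68, and the Tdgf1 window held 1, from -113 to -109. A Smad box was present in 45.4% of all windows. The Id2 window held 1 GGCGCC from -231 to -226, a motif found in 10.4% of windows. No match to any of the 4 motifs lay in the Nodal or Bmp4 window, and none of the 6 windows held the FoxH1 core, which 3.33% of all windows held. Such matches describe letters only, and binding of Smads or FoxH1 was not measured here. The windows of Smad7, Lefty1, Lefty2 and Id1 were left out of the motif and CpG comparisons. Whether they hold these motifs was not tested.

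The windows also differed in CpG content. The ratio of observed to expected CpG was 0.953 for Smad6, 0.740 for Id2 and 0.738 for Id3, against a median of 0.380 over all windows. It was 0.576 for Tdgf1, 0.426 for Bmp4 and 0.208 for Nodal. Nodal thus had the fewest CpG of the 6 genes, 4 in its window, and 30.4% of all windows had a lower ratio. In the replicated mm10 list its promoter carried the highest H3K4me3 signal of the 10 genes, an order that did not hold in every list, as described below.

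A gene counted as marked where a peak touched the window from 1 kb before to 1 kb after its 5′ end. Signal is the authors' value of the strongest such peak, a ratio of ChIP over control. Neighbouring peaks with gaps under 1 kb form a domain, and width is that of the widest domain touching the promoter. Values are from the mm10 lists: the authors' replicated list, whose signals at these 10 genes are identical to those of the pooled list, and 1 list per replicate. All 10 genes were marked in the replicated list, where 68.4% of protein-coding genes were marked. They were also marked in both replicate lists, as were 67.8% of genes, and in the pooled mm9 list, as were 70.0%. Over all marked genes the median signal was 43.1 and the median width 2428 bp in the replicated list. The median of the 10 genes was 40.4 for signal and 8565 bp for width. Their signals therefore lay about the middle of the marked genes, while their domains were broad. All 10 had a domain of 5 kb or more, a width that 9.24% of protein-coding genes reached. Without joining of peaks 5 of the 10 kept a single peak of that width, Smad7, Smad6, Tdgf1, Bmp4 and Lefty1, beside 3.34% of genes, and the median width was 5021 bp. The 4 genes Smad7, Tdgf1, Lefty2 and Nodal reached 10 kb in the replicated list, as did 1.82% of genes. Only Smad7 did so in both replicates. Tdgf1 had 8550 bp and Lefty2 9409 bp in replicate 1, and Nodal had 9644 bp in replicate 2. Without joining none of the 10 reached 10 kb, and Smad7 was the widest with 8920 bp.

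**Figure D1:**
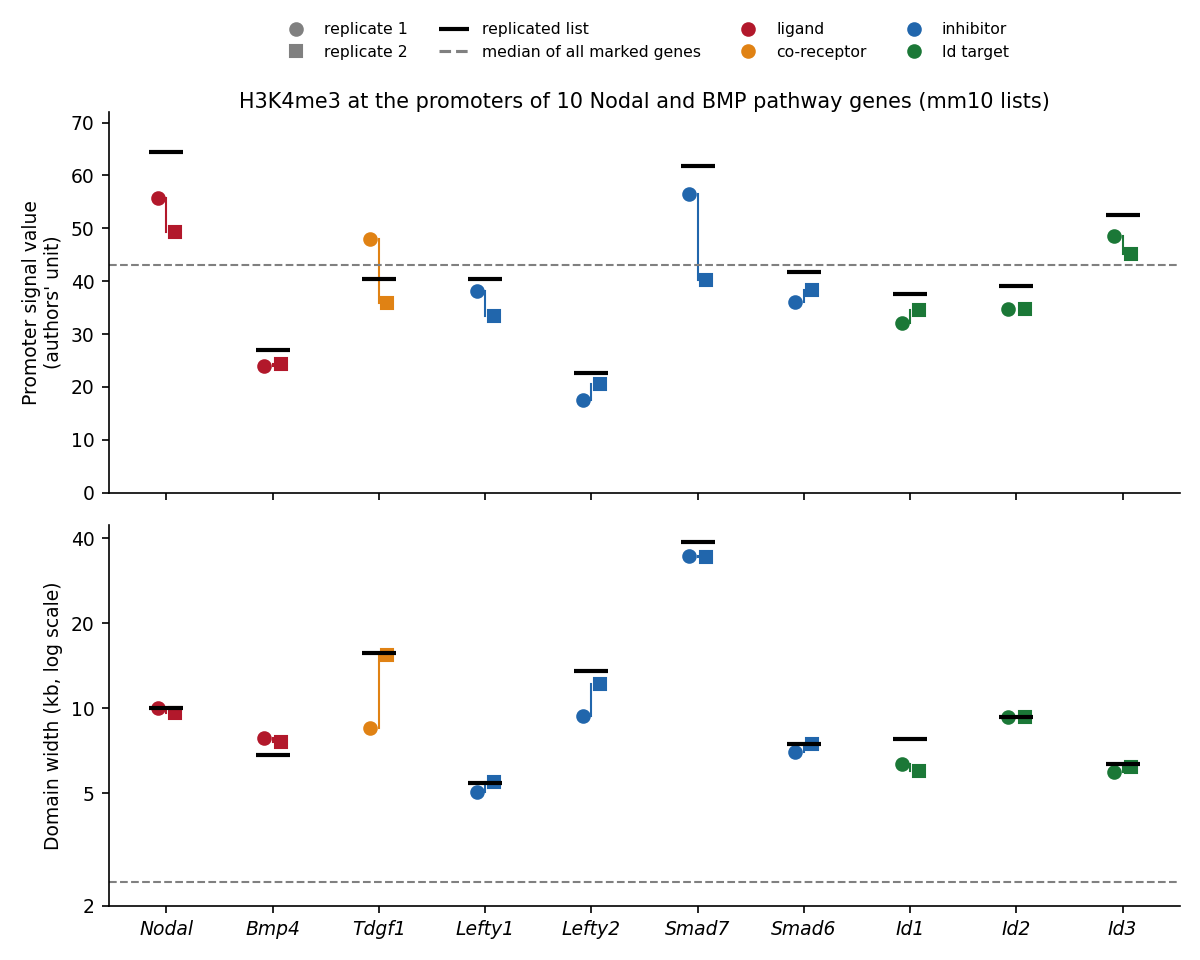
Promoter signal value (upper panel) and domain width in kb on a log scale (lower panel) of each gene, with circles for replicate 1, squares for replicate 2, black bars for the replicated list and dashed lines for the median of all marked genes in the replicated list. Signals fall on both sides of the dashed line, while all 10 widths lie above it, from 5447 bp for Lefty1 to 38840 bp for Smad7.

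Of the ligand genes, Nodal (gene ID 18119, chr10:61417972-61425338, plus strand) had signals of 55.8 in replicate 1 and 49.4 in replicate 2 (mean 52.6 ± 4.55, SD, n = 2) and 64.4 in the replicated list. In the replicated list this was the highest of the 10 genes and exceeded 86.5% of marked genes, while in replicate 1 Smad7 was higher (56.5). The Nodal domain was 10017 and 9644 bp wide in the replicates and 10040 bp in the replicated list (chr10:61414881-61424920). It began 3091 bp upstream of the start, ran 6949 bp downstream, and covered 94.3% of the gene. A single peak from 368 bp upstream to 3661 bp downstream carried the signal of 64.4, and the other 3 peaks of the domain reached at most 11.2.

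Bmp4 (gene ID 12159, chr14:46383525-46390669, minus strand) had signals of 24.0 and 24.4 in the replicates (mean 24.2 ± 0.263, SD, n = 2) and 27.0 in the replicated list, above 28.6% of marked genes. Its replicates differed by less than those of most genes, and both lay below every replicate value of Nodal. The domain was 7856 and 7568 bp wide in the replicates and 6813 bp in the replicated list (chr14:46385001-46391813), where it was 1 peak. Of this domain, 83.2% lay downstream of the Bmp4 start, and its summit was 3061 bp inside the gene. The start of Gm15222, a long non-coding RNA gene, lies in the same domain, 3191 bp downstream of the Bmp4 start. ChIP-seq peaks carry no strand, so mark at the Bmp4 start and at Gm15222 cannot be told apart there.

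Tdgf1 (gene ID 21667, chr9:110939608-110946158, minus strand), the co-receptor gene, had signals of 48.0 and 35.8 (mean 41.9 ± 8.62, SD, n = 2) and 40.4 in the replicated list. The larger replicate value was 1.34 times the smaller, while the median of this ratio over 13951 genes marked in both replicates was 1.08 and its 90th percentile 1.30. The width was 8550 bp in replicate 1 and 15480 bp in replicate 2, and 15740 bp in the replicated list (chr9:110940882-110956621). Of the bases covered by either replicate's domain, the replicates shared 55.2%, the lowest share of the 10 genes. The longer domain holds the start of a second protein-coding gene, Lrrc2, 5387 bp upstream of Tdgf1. A peak of signal 30.5 from 9479 to 4545 bp upstream of Tdgf1 covers that start. In replicate 1 the peak at Lrrc2 had a signal of 26.4 in a separate domain of 5744 bp, and in replicate 2 it had 26.5 and was joined to Tdgf1. The wide domain is thus shared by both genes. The peak over the Tdgf1 start itself ran from 1198 bp upstream to 5276 bp downstream.

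The secreted inhibitors Lefty1 and Lefty2 lie 41.9 kb apart on chromosome 1 in the same orientation and differed in both measures. Lefty1 (gene ID 13590, chr1:180935022-180938401, plus strand) had signals of 38.2 and 33.4 (mean 35.8 ± 3.36, SD, n = 2) and 40.4 in the replicated list. Its domain was a single peak, 5049 and 5504 bp wide in the replicates and 5447 bp in the replicated list (chr1:180933154-180938600) and covered 98.8% of the gene in replicate 1 and all of it in replicate 2 and in the replicated list. This was the narrowest domain of the 10.

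Lefty2 (gene ID 320202, chr1:180893108-180899107, plus strand) had signals of 17.5 and 20.5 (mean 19.0 ± 2.09, SD, n = 2) and 22.7 in the replicated list, the lowest of the 10 genes. Its 2 values lay below both values of Lefty1. Its domain was broader, with 9409 and 12224 bp in the replicates and 13525 bp in the replicated list (chr1:180883600-180897124), and both replicates exceeded both of Lefty1. This order depended on the joining of peaks: the widest single peak was 4595 bp in Lefty2 and 5447 bp in Lefty1, and with joining up to 3 kb the domains were 13525 and 13421 bp. It consisted of 6 peaks, and 29.7% of it lay downstream of the start. The peaks upstream reached 9508 bp before the gene with signals of at most 11.1. An end of the long non-coding RNA gene Gm39714 lies in the Lefty2 domain, 7250 bp upstream of Lefty2. An end of Gm39715, another such gene, whose strand was not known here, lies 2676 bp downstream of the Lefty1 start.

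Lefty1 and Lefty2 are close copies, so part of their reads may be hard to place. Within 2 kb of each start in the mm9 genome, 3.26% of all stretches of 40 bases in Lefty1 occurred without mismatch in Lefty2, a count made after the values were seen. The sources used here do not say how the authors treated reads that match both genes. The part of such reads in the difference was not tested.

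Of the inhibitory Smad genes, Smad7 (gene ID 17131, chr18:75367365-75395935, plus strand) had signals of 56.5 in replicate 1 and 40.2 in replicate 2 (mean 48.3 ± 11.6, SD, n = 2) and 61.8 in the replicated list. The ratio of its replicates was 1.41, the largest of the 10 genes and above the 90th percentile of all genes. The signal exceeded 85.6% of marked genes in replicate 1 and 55.7% in replicate 2, so its rank by signal rests on replicate 1. The width did not share this spread. It was 34499 bp in replicate 1 and 34457 bp in replicate 2 (mean 34478 ± 29.7, SD, n = 2) and 38840 bp in the replicated list (chr18:75357650-75396489). By width Smad7 ranked 1 of all marked genes in replicate 1 and 2 in replicate 2 and in the replicated list.

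The Smad7 domain joined 15 peaks in the replicated list and covered the gene from 9715 bp upstream of the start to beyond its end. In replicate 2 it covered 87.1% of the gene. The strongest peak ran from 59 bp upstream to 8860 bp downstream, with its summit 2972 bp inside the gene. A second, of signal 32.4, lay from 5443 to 129 bp upstream. The remaining 13 peaks had signals of at most 11.4, and downstream of the strongest peak none was above 8.70. Both ends of the long non-coding RNA gene Gm20544, at 8726 and 277 bp upstream, fall in the domain, as does an end of Gm41776, another such gene, at 28408 bp downstream. The strand of both genes was not known here.

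Smad6 (gene ID 17130, chr9:63953076-64022085, minus strand) had signals of 36.0 and 38.3 (mean 37.2 ± 1.68, SD, n = 2) and 41.7 in the replicated list, close to the median of marked genes. Its domain was 7011 and 7494 bp wide in the replicates and 7466 bp in the replicated list (chr9:64016276-64023741). In contrast to Smad7, it stayed at the 5′ end and covered 8.42% of a much longer gene. The GTCTAGAC printed above lies inside this domain.

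Among the Id genes, Id3 (gene ID 15903, chr4:136143822-136145392, plus strand) had the highest signals, 48.5 and 45.2 in the replicates (mean 46.8 ± 2.29, SD, n = 2) and 52.5 in the replicated list. Id2 (gene ID 15902, chr12:25093799-25096092, minus strand) had 34.7 in both replicates (mean 34.7 ± 0.0228, SD, n = 2) and 39.1 in the replicated list. Id1 (gene ID 15901, chr2:152736251-152737410, plus strand) had 32.1 and 34.5 (mean 33.3 ± 1.70, SD, n = 2) and 37.5. Both replicates of Id3 lay above all replicate values of Id1 and Id2.

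The order of the Id genes by width was different. Id2 had the broadest domain, 9298 and 9307 bp in the replicates and 9326 bp in the replicated list (chr12:25092393-25101718), and the replicates shared 99.7% of the bases covered by either. Id1 measured 6373 and 6003 bp in the replicates and 7804 bp in the replicated list (chr2:152734517-152742320). Id3 measured 5933 and 6188 bp, and 6336 bp in the replicated list (chr4:136142997-136149332). Without joining the order turned, with widest single peaks of 4086 bp in Id1, 3831 bp in Id3 and 3260 bp in Id2. Each domain covered its whole gene. The Id2 domain lay mostly upstream, with 39.7% of it downstream of the start, whereas 77.8% of the Id1 and 87.0% of the Id3 domain lay downstream and ran past the gene's end.

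**Figure D2:**
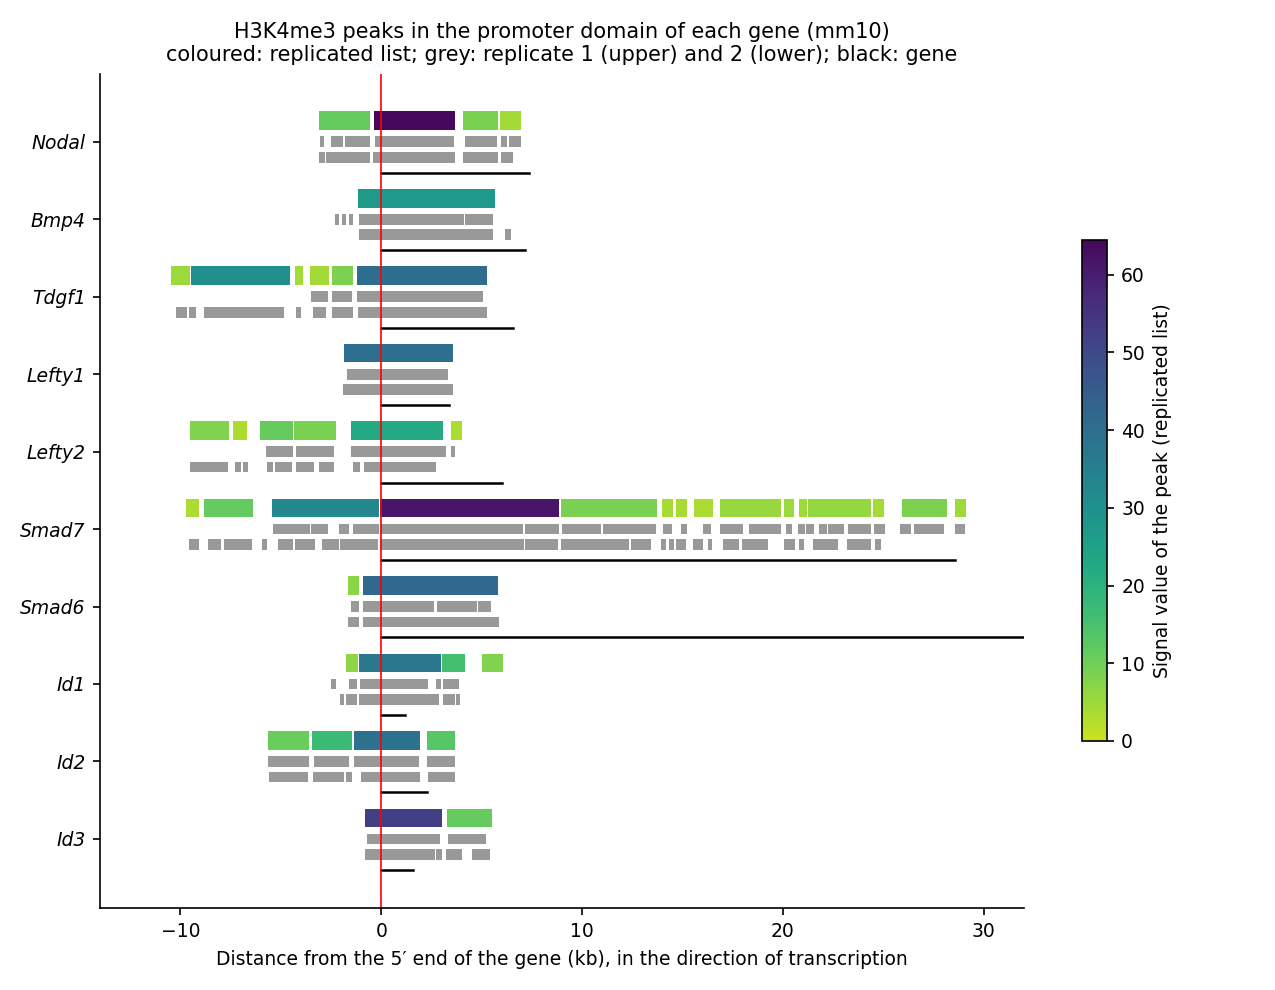
Peaks of the promoter domain of each gene by distance from the 5′ end in kb (x axis, in the direction of transcription), coloured by signal value for the replicated list and grey for replicate 1 (upper) and replicate 2 (lower), with the gene as a black line up to the edge of the plot. In the replicated list Smad7 spreads over its whole gene in 15 peaks, Lefty2 and Tdgf1 extend upstream with 6 peaks each, and the Tdgf1 domain is shorter in replicate 1.

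Set side by side by signal in the replicated list, the order was Nodal, Smad7, Id3, Smad6, Tdgf1, Lefty1, Id2, Id1, Bmp4 and Lefty2. Of the 9 pairs of neighbours in this order, 5 had overlapping replicate values: Nodal and Smad7, Smad7 and Id3, Smad6 and Tdgf1, Tdgf1 and Lefty1, and Lefty1 and Id2. The remaining 4 steps, from Id3 to Smad6, Id2 to Id1, Id1 to Bmp4 and Bmp4 to Lefty2, had replicate values that did not overlap. For Id2 and Id1 the gap was narrow, with 34.7 as the lower value of Id2 and 34.5 as the higher value of Id1. By width the order was Smad7, Tdgf1, Lefty2, Nodal, Id2, Id1, Smad6, Bmp4, Id3 and Lefty1. Tdgf1 overlapped Lefty2, and Lefty2 overlapped Nodal. In 2 further pairs, Id1 with Smad6 and Smad6 with Bmp4, both replicates gave the opposite order to the replicated list.

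The inhibitor and Id genes were then compared with the ligand genes, in 14 pairs of 7 genes with 2 ligands. Genes are not replicates, so the comparison is a count without a test. In the replicated list the signal was higher than the ligand's in 6 of 14 pairs, and all 6 were pairs with Bmp4. Smad7, Smad6, Lefty1, Id1, Id2 and Id3 exceeded Bmp4, also in both replicates, where the lowest of their values was 32.1 and the highest of Bmp4 was 24.4. The values of Bmp4 and Smad7 belong to long peaks with summits 3061 and 2972 bp downstream of the start. For Bmp4 the value may therefore include mark at Gm15222, so these pairs do not compare start sites alone. Lefty2 was below Bmp4 in both replicates. None of the 7 genes exceeded Nodal in the replicated list or in replicate 2, and 1, Smad7, did in replicate 1. The ligands thus stood near opposite ends of the range of signals.

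By width the inhibitor or Id gene was broader in 7 of 14 pairs of the replicated list. The 5 genes Smad7, Smad6, Lefty2, Id1 and Id2 were broader than Bmp4, and the 2 genes Smad7 and Lefty2 broader than Nodal. The count was 4 in replicate 1 and 5 in replicate 2. The pairs of Smad6 and Id1 with Bmp4 were lost in both replicates, where Bmp4 was wider and Id1 narrower than in the replicated list. Without joining, 1 of the 7 genes was broader than Bmp4 and 5 were broader than Nodal, since the widest single peak was 6813 bp in Bmp4 and 4030 bp in Nodal. With joining up to 3 kb, 7 were broader than Bmp4 and 1 was broader than Nodal. Smad7 was broader than both ligands in all 7 lists. The 7 inhibitor and Id genes had a median width of 7804 bp, the 2 ligands 10040 and 6813 bp.

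**Figure D3:**
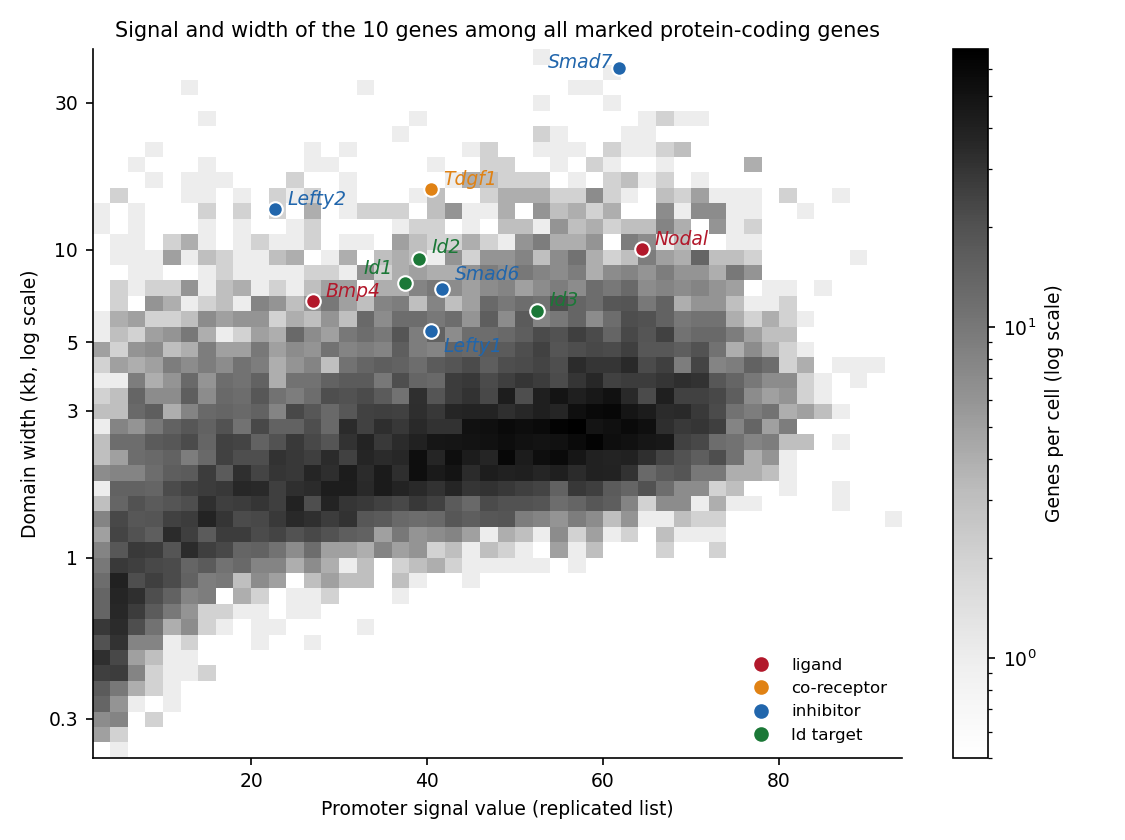
Promoter signal value (x axis) against domain width in kb on a log scale (y axis) in the replicated list, with the number of marked protein-coding genes per cell in grey (log scale) and the 10 genes as points coloured by role. The 10 genes lie above the densest part of the plot, at signals from 22.7 (Lefty2) to 64.4 (Nodal), with Smad7 near the top.

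The mm9 lists give regions with edges on a grid of 200 bp and signal on another scale, so they were compared by order only within a list. In the pooled mm9 list the medians over all marked genes were 15.8 for signal and 3200 bp for width. Smad6 was highest of the 10 genes there with 19.2, followed by Lefty1 with 17.8 and Bmp4 with 16.7. Tdgf1 had 14.4, Id3 13.2, Id2 13.1, Nodal 13.0, Lefty2 12.2, Smad7 11.5 and Id1 10.8. Nodal and Smad7, the highest on mm10, were in the lower part of this order, at signals above 35.0% and 27.5% of marked genes. Again 6 of 14 pairs had a higher signal than the ligand, but they were other pairs. Smad6 and Lefty1 exceeded Bmp4, and Smad6, Lefty1, Id2 and Id3 exceeded Nodal. In mm9 replicate 1 Id3 was highest with 23.7, and Nodal, at 20.8, lay above Bmp4, at 19.2, as on mm10. In mm9 replicate 2 Smad6 was highest with 20.0, and Nodal, at 14.5, lay below Bmp4, which was close to Smad6. The pairs with a higher signal than the ligand numbered 5 in each mm9 replicate. The order of the signals therefore depended on the authors' list.

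By width Smad7, Tdgf1 and Lefty2 were the broadest in the pooled mm9 list, as in the replicated mm10 list. In mm9 replicate 2 Nodal, with 13200 bp, was wider than Lefty2, with 12400 bp. In the pooled mm9 list Smad7 measured 40000 bp, with 39400 and 40200 bp in the replicates, and exceeded 99.9% of marked genes. Tdgf1 measured 17000 bp, with 17000 and 17200 bp in the replicates, so on mm9 the long domain was present in both. Lefty2 measured 14800 bp, Bmp4 13400 bp, Nodal 13000 bp, Id2 10000 bp, Id3 9000 bp, Id1 8800 bp, Smad6 7600 bp and Lefty1 5800 bp. Only Bmp4 was here over 1.5 times as wide as in the replicated mm10 list, and each mm9 replicate gave 7800 bp for it. In this list 4 of 14 pairs were broader than the ligand, those of Smad7 and Lefty2 with each ligand, while the mm9 replicates gave 5 and 6.

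Other peaks within 50 kb of the genes were described from the replicated list. Peaks more than 1 kb from the start of any gene were found near all 10. The share of all genes with such peaks nearby was not counted, so this sets the 10 apart in no way. The strongest of them near Smad7 lay 24.1 kb upstream, with a signal of 34.9 (32.3 and 28.5 in the replicates) and a width of 3764 bp. Near Tdgf1 the strongest lay 14.9 kb upstream, with a signal of 23.6 (22.1 and 20.7) and a width of 6478 bp. Id1 had one 12.2 kb upstream with 19.7 (16.9 and 18.4), and Smad6 had one beyond the 3′ end, 94.4 kb from the start, with 18.4 (13.5 and 19.7). For the other 6 genes the strongest such peak had a signal between 6.59 (Nodal) and 15.0 (Id3). Around Nodal the stronger peaks were those of neighbouring genes, 61.8 at the Pald1 start and 78.5 at Eif4ebp2.

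The genes most alike to Smad7 and Bmp4 were found by distance over 4 values, log2 signal and log2 width in each replicate, among 13950 other genes marked in both. For Smad7 the nearest were Mllt6, at a distance of 0.404 with signals of 43.1 and 39.1 and widths of 32532 and 33762 bp, and Tet1, at 0.623 with 51.1 and 52.6 and widths of 26192 and 40662 bp. For Bmp4 they were H4c8, at 0.196 with signals of 25.1 and 27.0, and Ooep, at 0.200 with 26.7 and 25.8.

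Lists of other pathway genes place these values among their partners. They were chosen with earlier results of these data known and are described by counts. In all, 88 of 99 listed genes were marked, beside 68.4% of protein-coding genes. Of 27 other ligand genes of the superfamily 20 were marked, with a median signal of 28.8, close to Bmp4 and far below Nodal on mm10. The contrast with Nodal was not seen in the pooled mm9 list, where Nodal, at 13.0, lay below Bmp4, at 16.7. There, with every start, the other marked ligands ran from 4.37 (Gdf5) to 42.9 (Bmp2). In the replicated mm10 list Gdf9 (71.3) and Bmp8a (56.5) were the highest, and Gdf15 (19.3) and Gdf5 (7.91) the lowest. Starts of other genes were sought only in the domains of the members, not in those of the listed genes. A signal given for a listed gene, here or in the lists below, may therefore include mark at a neighbouring start. This was not tested. The first 5 of 7 unmarked ligands in alphabetical order were Bmp10, Bmp15, Bmp5, Gdf2 and Inhba. Inhba was marked in mm9 when every annotated start was used, whereas Gdf9, the highest on mm10, was not. Only Inhbb (8144 bp) and Amh (5923 bp) among these ligands had domains of 5 kb or more in the replicated list. Nodal was wider than all 20 and Bmp4 wider than all but Inhbb there. In the single mm10 replicates Gdf3 also passed 5 kb, with 5402 and 5892 bp, as did Tgfb1 and Gdf5 in replicate 1. In the pooled mm9 list Amh, at 20800 bp, was wider than both. Inhbb, Amh, Bmp2, Gdf3 and Tgfb1 were named after their values were seen.

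All 17 receptor and co-receptor genes were marked, with medians of 35.2 for signal and 2416 bp for width. The activin and BMP type II receptor genes Acvr2b (54.6) and Bmpr2 (50.2) were the highest, and Acvrl1 (13.1) and Amhr2 (4.46) the lowest. None reached 5 kb in the replicated list, in contrast to Tdgf1. In the pooled mm9 list with every start, Acvr2b, at 5200 bp, and Eng, at 5000 bp, did. All 6 signal-transducing Smad genes were marked, with a median of 36.8 and 2688.5 bp. Smad1 (50.2) and Smad2 (39.1) were the highest, Smad5 (36.2, tied with Smad4) and Smad9 (33.2) the lowest. Their signals spanned that of Smad6, but none had a domain of 5 kb in the replicated list, while Smad6 and Smad7 did. In the pooled mm9 list with every start, Smad3 measured 5800 bp. Eng and Smad3 were named after their values were seen.

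Genes for Smad partners and regulators inside the cell had the highest median of the 7 lists, 55.4, with 15 of 16 marked and a median width of 5760 bp. Skil (68.9), which encodes a Smad corepressor, and Trim33 (65.1) were the highest, and Pmepa1 (37.7) and Ski (32.8) the lowest. Of this list 8 genes had domains of 5 kb or more and 2, Skil with 14564 bp and Tgif1 with 14027 bp, of 10 kb or more. Tgif1 was named after its values were seen. Nedd4l had no peak at its 5′ end on mm10 and was marked on mm9 with every start. Of 14 secreted antagonists 12 were marked, with a median of 27.0. Dand5 (63.4) and Twsg1 (57.1) were higher than Lefty1, while Chrdl1 (12.4) and Sost (3.10) were lower than Lefty2. Cer1 and Sostdc1 were unmarked. Whether the peaks at Dand5 and Twsg1 also cover starts of neighbouring genes was not tested.

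Of 5 convertase genes, whose products process the ligands, 4 were marked, with a median of 27.0. Pcsk6 (39.5) and Pcsk5 (30.3) were the highest, and Bmp1 (23.7) and Tll1 (21.9) the lowest. Furin was unmarked at its 5′ end on mm10 and marked on mm9 with every start. All 14 other targets, mostly genes of later lineages, were marked, with the lowest median of the lists, 18.6. Hhex (55.2) and Eomes (37.4) were the highest and Gata2 (9.92) and Dlx5 (7.76) the lowest. The signals of Id1, Id2 and Id3 lay between those of Eomes and Hhex. The replicate values of Id1 and Id2 overlapped those of Eomes (36.0 and 30.3), and those of Id3 overlapped those of Hhex (47.5 and 50.5).

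**Figure D4:**
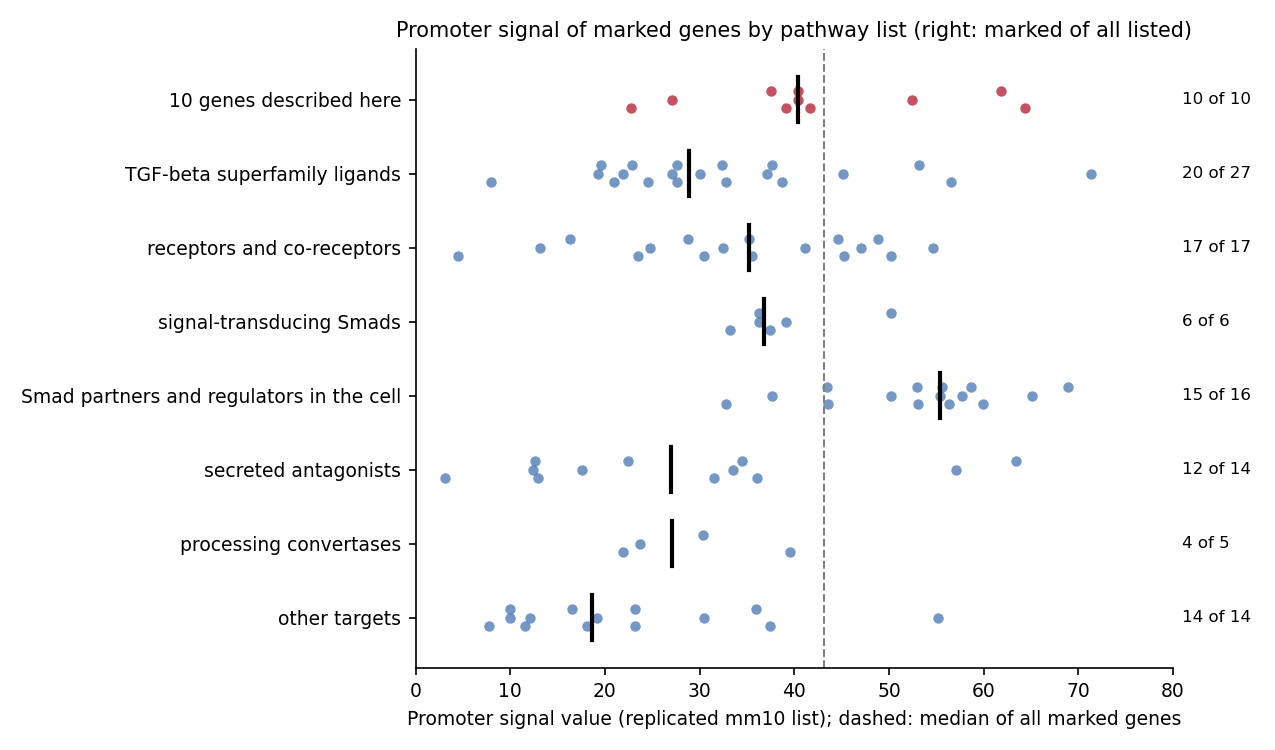
Promoter signal value in the replicated list (x axis) of the marked genes in each pathway list (y axis), with 1 point per gene, a black bar at the median, a dashed line at the median of all marked genes (43.1) and the number marked of all listed at the right. The median of the 10 genes is 40.4, and of the 7 lists only the Smad partners and regulators have a median above the dashed line.

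Marker genes of several cell types were set beside the label of the cells. Since 68.4% of all protein-coding genes were marked, a peak at a marker does not show that its cell type was present. Of 8 embryonic stem cell markers 7 were marked, with a median of 56.7: Pou5f1 (69.4), Sox2 (66.1), Tdh (58.8), Zfp42 (56.7), Klf4 (55.1), Dppa4 (39.8) and Nanog (37.7). Esrrb had no replicated peak at its 5′ end on mm10 and was marked on mm9 with every start. Nanog had 23.9 in replicate 1 and 47.9 in replicate 2, and was not marked on mm9 with every start. Of 6 fibroblast (feeder cell) markers 5 were marked: Thy1 (23.4), Twist1 (22.4), Col1a1 (15.7), Col1a2 (13.7) and Prrx1 (5.03), with Col3a1 unmarked. Of 5 primitive endoderm markers 4 were marked, Sox7 (18.1), Gata6 (14.2), Sox17 (9.49) and Pdgfra (3.88), with Gata4 unmarked. Pdgfra had no promoter peak in replicate 2, and Gata4 was marked on mm9 with every start. All 4 epiblast and mesoderm markers were marked: Eomes, Mixl1 (30.5), Fgf5 (20.4) and T (16.5). Peak lists hold no amount of RNA, so the share of other cells and its part in the values of the 10 genes was not tested. The sequencing depth of the libraries is unknown, and with it the precision that depth gives a single value. Enrichment too weak for a list's threshold leaves no entry.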

How the data were processed

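H3K4me3 ChIP-seq of 2 biological replicates of 1 group was analysed from 7 peak lists, 4 on mm10 and 3 on mm9. Per the deposited file descriptions, each mm10 replicate list came from that replicate and a control, 1 list from both replicates pooled, and the replicated list from these 3. Signal on mm10 is the authors' ratio of ChIP to control for each peak, and the q-value was deposited there as −log10. Signal on mm9 is also a ratio computed by the authors, of unstated denominator, and the q-value was deposited as such. Aligner and peak caller: not given in the sources used here.

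Genes came from the RefSeq table of GRCm38.p6, with strand from GENCODE vM1 by name (18396 genes) or synonym (2191), so 20587 of 21887 protein-coding genes were used. Ranks were taken within a list, since lists were scaled separately. The rule was tested on simulated peaks. Scripts ran in Python 3.11.15, with matplotlib 3.10.9 for plots.

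The members and lists were chosen with earlier results of these data known. Named genes are the 10 members, in each pathway list the 2 marked genes of highest and the 2 of lowest signal and the unmarked genes (at most 5, in alphabetical order), the 2 genes most alike to Smad7 and to Bmp4, genes starting inside a member's domain, and all cell type markers. With 1 group, no test was made. Alternatives were each replicate's list, the pooled list, peaks of q-value below 1e-05 alone, promoter windows of 500 bp or of 2 kb, other joining distances and the mm9 lists. A comparison of protein sequences had been planned, and protein sequences were not used here.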

Additional observations from a re-analysis of the deposited data

How the results depend on the processing

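All 10 genes remained marked under every alternative tried. The number of the 99 genes in the pathway lists with a promoter peak, 88 in the replicated list, was between 87 and 91. The count of 6 of 14 pairs with a higher signal than the ligand was the same in the pooled mm9 list, but there 2 pairs were with Bmp4 and 4 with Nodal. The median signal of the 10 genes, 40.4, was between 35.3 and 37.1 in the single mm10 replicates, and 13.1 in the pooled mm9 list with the 5′ end or every start, whose signal scale is another. The median width, 8565 bp, was between 8203 and 8437.5 bp in the single mm10 replicates, 11500 bp in the pooled mm9 list under both choices of start, 5021 bp without joining and 11373.5 bp with joining up to 3 kb. Pairs broader than the ligand, 7 of 14, numbered 4 or 5 in the single mm10 replicates and 4 in the pooled mm9 list under both choices of start. They numbered 6 without joining, of which 1 was with Bmp4 and 5 were with Nodal. With joining up to 3 kb they numbered 8, of which 7 were with Bmp4 and 1 was with Nodal. Without joining, 5 of the 10 genes kept a width of 5 kb or more, and Lefty2, Id1, Id2, Id3 and Nodal did not. With joining up to 3 kb, Lefty1 widened to 13421 bp, Nodal to 19168 bp and Tdgf1 to 25302 bp. The strongest promoter peaks of the replicates overlapped for all 10 genes, also when 50 percent of each peak had to be covered. This overlap was not counted over all genes, so it is no trait of the 10. The q-value limit and both window sizes left all 10 signals identical. No paired analysis was possible because there is 1 group. Depth is unknown from peak lists, so its limit on a width or signal cannot be given.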
